A study of Homo sapiens with 6 samples.

Results

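The enzymes that build globosides and gangliosides from ceramide were followed in HEK293T cells treated with valproic acid (VPA), which inhibits histone deacetylases. There were 10 genes, A4GALT, UGCG, B4GALT5, B4GALT6, ST3GAL5, ST8SIA1, B4GALNT1, ST3GAL2, B3GALT4 and GBGT1, of the 47470 genes listed in the count files. They were listed by their place in the pathway, and A4GALT was chosen by its measured rise after VPA in these same libraries, so its own values are given as a description without a test. HEK293T cells derive from human embryonic kidney and express the large T antigen of SV40. RNA was taken from 3 libraries of untreated cells, labelled as wild type, and from 3 libraries of the same line after 1 day in 1 mM VPA, 6 libraries in all. The samples are 1 cell line at 1 dose and 1 time, and the sources used here do not say whether the libraries came from separate cultures, so a p-value measures only the spread between these libraries.

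Glycosphingolipids are membrane lipids with a sugar chain on a ceramide anchor. UGCG adds glucose to ceramide, B4GALT5 and B4GALT6 add galactose to give lactosylceramide, and lactosylceramide is then shared between branches. A4GALT makes the globoside Gb3, the receptor of Shiga toxin, ST3GAL5 makes the ganglioside GM3, and B4GALNT1 adds N-acetylgalactosamine to give GM2 and its relatives, while ST8SIA1 makes GD3 from GM3. Globosides are abundant in kidney and complex gangliosides in the nervous system.

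Counts on genes totalled between 18622267 and 18828495 per library, so that depth differed little. Of the 10 marker genes of embryonic kidney and this line, 9 had at least 10 counts in every library, but PAX8, a defining gene of kidney epithelium, had 2 counts over the 6 libraries. The summed normalized counts of the list lay between 15304 and 15512 in untreated and between 13489 and 14117 in VPA-treated libraries. The summed normalized counts of 7 markers of blood, endothelium and liver lay between 15.5 and 27.3 in untreated and between 32.7 and 44 in VPA-treated libraries, with no gene of the list above 35 counts in a library. The part of these markers in the results was not tested. Every one of the 1437 genes of chromosome X in the files is listed at 0 in all 6 libraries, including GLA, the enzyme that degrades Gb3, and SLC35A2, the UDP-galactose transporter, so these genes could not be assessed.

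The 250 bases before the start of the RefSeq transcript were compared for A4GALT, ST3GAL5 and ST8SIA1, which were higher with VPA, and for UGCG, which had no called change, in order to show what kind of promoter each gene has. RefSeq promoters on GRCh38.p14 were matched for 6 of the 10 genes, all but B4GALT6, B4GALNT1, ST3GAL2 and B3GALT4. The sequences run 5′ to 3′ on the strand of the gene, and capitals mark each GC box, searched as GGGCGG and its complement CCGCCC, with overlapping matches counted.
A4GALT, chr22:42720871-42721120, minus strand: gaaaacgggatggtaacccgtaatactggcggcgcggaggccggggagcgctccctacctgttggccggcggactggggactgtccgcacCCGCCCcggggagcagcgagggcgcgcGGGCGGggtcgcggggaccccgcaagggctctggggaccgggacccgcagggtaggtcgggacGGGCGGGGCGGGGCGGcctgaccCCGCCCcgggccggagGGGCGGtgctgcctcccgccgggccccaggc
ST3GAL5, chr2:85888991-85889240, minus strand: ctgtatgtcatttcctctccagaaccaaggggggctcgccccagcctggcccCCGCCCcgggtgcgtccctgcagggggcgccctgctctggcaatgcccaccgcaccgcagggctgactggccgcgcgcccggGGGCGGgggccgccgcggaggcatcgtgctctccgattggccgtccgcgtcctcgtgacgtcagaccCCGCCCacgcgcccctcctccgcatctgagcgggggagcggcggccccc
ST8SIA1, chr12:22334708-22334957, minus strand: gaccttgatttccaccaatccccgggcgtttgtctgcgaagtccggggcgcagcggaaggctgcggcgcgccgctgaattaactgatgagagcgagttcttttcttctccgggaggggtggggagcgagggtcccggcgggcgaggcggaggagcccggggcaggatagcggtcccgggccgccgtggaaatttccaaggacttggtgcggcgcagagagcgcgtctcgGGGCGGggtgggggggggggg
UGCG, chr9:111896564-111896813, plus strand: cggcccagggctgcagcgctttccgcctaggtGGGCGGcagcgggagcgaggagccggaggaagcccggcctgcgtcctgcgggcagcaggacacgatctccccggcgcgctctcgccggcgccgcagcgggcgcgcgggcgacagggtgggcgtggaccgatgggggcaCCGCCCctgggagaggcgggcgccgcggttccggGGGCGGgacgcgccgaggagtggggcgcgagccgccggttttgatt
All 4 windows were rich in GC, with 79.2% for A4GALT, 76% for ST3GAL5, 69.2% for ST8SIA1 and 78.4% for UGCG, against a median of 58% over 35116 promoter windows of the same length. The A4GALT window held 7 GC boxes, a number reached by 1.12% of all windows. ST3GAL5 and UGCG held 3 each, and 13.9% of all windows held 3 or more, while ST8SIA1 held 1, where 42.6% of windows had at least 1. The CpG count was 33 for A4GALT, 29 for ST3GAL5, 28 for ST8SIA1 and 39 for UGCG, with a median of 11 over all windows. The UGCG window, from a gene without a called change, had more CpG than the other 3 windows shown, and its GC share lay between those of A4GALT and ST3GAL5. A4GALT has another RefSeq start upstream, whose window had 42% GC, 1 GC box and 5 CpG, and ST3GAL5 has 5 listed starts, of which the first is shown. The windows of its 5 starts ranged from 52% to 80% GC and from 2 to 38 CpG.

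At the level of the whole set, 8 of the 10 genes passed the filter on low counts and B3GALT4 and GBGT1 did not. The 15298 genes that passed were tested with edgeR's quasi-likelihood test, with Benjamini-Hochberg adjustment over all of them. Among the 7 tested genes other than A4GALT, 4 were higher in VPA-treated cells (ST8SIA1, B4GALNT1, ST3GAL5 and B4GALT6) and 1 was lower (ST3GAL2) at an adjusted p under 0.05, against 32.9% of all tested genes higher and 30.0% lower. Under the study's thresholds, which also ask for a log2 fold change of 1 or more in size, 2 of the 7 were up-regulated, ST8SIA1 and B4GALNT1, where 12.0% of all tested genes were. Groups that did not overlap were found for ST8SIA1, B4GALNT1, ST3GAL5 and B4GALT6 on the higher side and for ST3GAL2 on the lower side, as for 34.8% and 31.0% of all tested genes. None of the 7 was down-regulated by these thresholds in edgeR, at an unadjusted p under 0.05 or in DESeq2, and 0.503% of all tested genes were. ST8SIA1, counted here among the higher and up-regulated genes, passed the filter only through its VPA-treated libraries and had to differ, so these counts describe the genes and support no statement on the set. The median log2 fold change of the 7 was 0.14, and that of all tested genes was 0.0058. In these bulk libraries, fewer cells with a transcript and less of it per cell cannot be told apart.

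**Figure D1:**
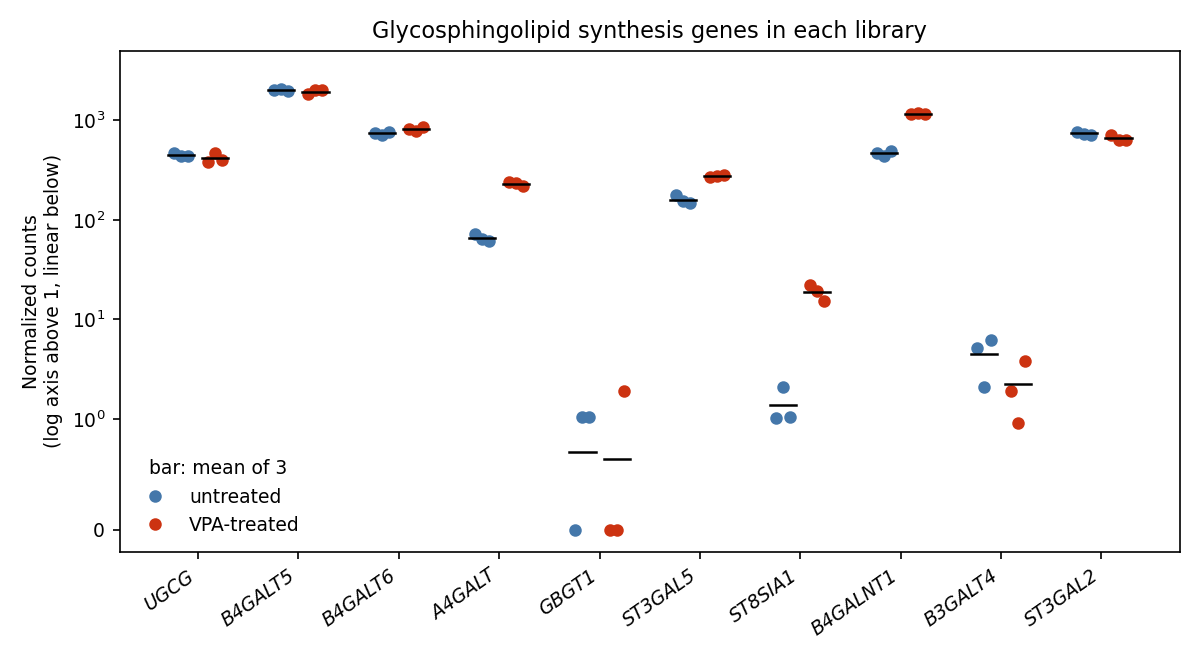
Normalized counts (vertical axis, logarithmic above 1 and linear below) of the 10 genes in 3 untreated (blue) and 3 VPA-treated (red) libraries, with a bar at each mean. A4GALT, ST3GAL5, ST8SIA1 and B4GALNT1 were higher in each VPA-treated library than in each untreated one, while UGCG, B4GALT5, GBGT1 and B3GALT4 overlapped.

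The 3 enzymes up to lactosylceramide differed little between the groups, by at most 0.14 on the log2 scale. UGCG, glucosylceramide synthase, lies at chr9:111896814-111935369. Normalized counts, scaled by TMM to a library of mean size, were 469, 438 and 438 without VPA and 382, 468 and 404 with it. The groups overlapped, since VPA-treated replicate 2 lay within the untreated range and the other VPA-treated libraries lay below it. The difference did not pass the test, with a log2 fold change of -0.10 ± 0.074 (SE, adjusted p = 0.239, edgeR), and the approximate 95% interval ran from -0.25 to 0.043. Without VPA-treated replicate 2 it was -0.19 (adjusted p = 0.0387 in edgeR), and with scaling by library totals it was 0.029, a scaling that raised the median of all tested genes to 0.14.

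B4GALT5, the lactosylceramide synthase gene with the most counts, lies at chr20:49632945-49713878. It had 2009, 2075 and 1949 normalized counts in untreated and 1825, 1998 and 2015 in VPA-treated libraries. The groups overlapped, and only VPA-treated replicate 1 was below the untreated range. Its log2 fold change was -0.047 ± 0.047 (SE, adjusted p = 0.393, edgeR) with an approximate 95% interval from -0.14 to 0.045, and the sign turned with library totals and with upper quartile scaling. B4GALT6, its paralog for the same step at chr18:31622246-31724641, had 751, 714 and 771 normalized counts in untreated and 818, 790 and 850 in VPA-treated libraries. Here the groups did not overlap, but the gap was narrow. B4GALT6 was higher by a log2 fold change of 0.14 ± 0.055 (SE, adjusted p = 0.0348, edgeR), and the call was lost with DESeq2 (0.11, adjusted p = 0.225), with DESeq2 size factors, without a filter and without each of 4 libraries in turn (untreated replicates 1 and 2, VPA-treated replicates 1 and 3), with adjusted p-values up to 0.179 in edgeR for the last.

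Because the B4GALT6 to B4GALT5 ratio is taken within a library, it does not depend on the scaling. The ratio of normalized counts was 0.374, 0.344 and 0.396 in untreated and 0.448, 0.395 and 0.422 in VPA-treated libraries. The groups overlapped, with VPA-treated replicate 2 just under untreated replicate 3. The difference of the log2 ratios was 0.19, which did not pass an exact permutation test (two-sided, p = 0.2, where 3 libraries against 3 cannot go below 0.1).

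A4GALT, Gb3 synthase, lies at chr22:42692121-42721301 on the minus strand, and its MANE Select transcript, the reference transcript agreed between RefSeq and Ensembl, has 3 exons and 2092 bases. It had 72.4, 63.8 and 61.9 normalized counts in untreated libraries and 242, 233 and 220 in VPA-treated libraries. All VPA-treated libraries were above all untreated libraries, which is what the gene was chosen for. The means were 66 in untreated and 232 in VPA-treated cells, 3.5-fold higher, and the log2 fold change was 1.81 ± 0.11 (SE). Leaving out any 1 library gave values from 1.76 to 1.87, and library totals gave 1.94. The log2 fold change of A4GALT was above that of 95.1% of tested genes.

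The tested genes nearest to A4GALT did not show a change of that size. CYB5R3, a cytochrome b5 reductase gene 42.7 kb away on the side of lower coordinates, went from 5310 ± 170 to 5459 ± 190 normalized counts (SD, n = 3 each), or 0.04 ± 0.041 (SE) on the log2 scale (adjusted p = 0.413, edgeR). ARFGAP3, a regulator of Golgi transport 75.2 kb away on the other side, went from 856 ± 44.2 to 921 ± 28.8 (SD, n = 3 each), or 0.11 ± 0.054 (SE, adjusted p = 0.0951, edgeR). Both passed the test with library totals and with upper quartile scaling, at log2 fold changes of up to 0.24, and ARFGAP3 also with at least 10 counts in every library (0.13) and with the replicate block (adjusted p = 0.0382, edgeR). Some annotated CYB5R3 transcripts overlap 74 bases of the A4GALT exons on the same strand. By distance between centred log2 CPM over the 6 libraries, where CPM is the count scaled to a fixed library size, the 3 tested genes closest to A4GALT were ADGRB2 with a distance of 0.065, DYSF with 0.08 and EBF4 with 0.11. Their log2 fold changes were 1.81, 1.91 and 1.80, near that of A4GALT because the distance was taken over these same libraries. The likeness follows from the choice and is a description only.

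Only 1 of the other globoside enzymes passed the filter, and it was lower in edgeR. B3GALNT1, which turns Gb3 into globoside Gb4, had 136, 121 and 130 normalized counts in untreated and 91.9, 98.2 and 120 in VPA-treated libraries. All VPA-treated libraries were lower, with replicate 3 just under the untreated range. Its log2 fold change was -0.32 ± 0.12 (SE, adjusted p = 0.0234, edgeR), and the call was lost with DESeq2 (-0.35, adjusted p = 0.0968), with library totals and upper quartile scaling and without each of 3 libraries (untreated replicate 1, VPA-treated replicates 1 and 2). GBGT1, the human form of the Forssman synthase gene at chr9:133152948-133163914, had 0, 1 and 1 counts in untreated and 0, 0 and 2 in VPA-treated libraries. A count of 0 allows up to 3 counts in a library, or 0.159 to 0.161 CPM at these depths, so a change of GBGT1 was not detectable. The other globo-series genes listed, B3GALT5, A3GALT2, FUT1 and FUT2, also failed the filter, with 19, 25, 25 and 1 counts over the 6 libraries. These 4 are named after their values were seen. B3GALT5, which extends Gb4, had 1 count in untreated and 18 in VPA-treated cells. DESeq2, run without that filter, called B3GALT5 higher and no other gene of this list higher or lower. In edgeR none was higher and 1 was lower, where 32.9% and 30.0% of all tested genes were. The B3GALT5 call rests on 1 untreated count, so it is a description.

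On the ganglioside branch ST3GAL5 and B4GALNT1 rose. ST3GAL5, GM3 synthase, lies at chr2:85837120-85889034. It had 176, 155 and 147 normalized counts in untreated and 268, 278 and 283 in VPA-treated libraries. The lowest VPA-treated library was well above the highest untreated one. The means of 159 and 276 gave a log2 fold change of 0.80 ± 0.089 (SE, adjusted p = 9.92e-08, edgeR), a 1.74-fold rise that stays under the study's fold change threshold.

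B4GALNT1, GM2 and GD2 synthase, lies at chr12:57623409-57633201 and had the smallest adjusted p of the 7. It had 473, 438 and 491 normalized counts in untreated and 1149, 1174 and 1168 in VPA-treated libraries. The VPA-treated libraries lay close together and far above the untreated ones. This gave a log2 fold change of 1.32 ± 0.056 (SE, adjusted p = 1.63e-14, edgeR), a 2.49-fold rise, and leaving out any 1 library gave 1.26 to 1.35. Of the 6621 tested genes with a mean of 500 to 5000 normalized counts, the class that holds B4GALNT1, 1.57% were up-regulated. The pseudogene SLC26A10P overlaps 2136 bases of the B4GALNT1 exons on the opposite strand, and the strand setting of the counting is not given in the sources used here. SLC26A10P itself had 119, 98.3 and 103 normalized counts in untreated and 116, 103 and 99.5 in VPA-treated libraries, which overlapped.

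ST8SIA1, GD3 synthase, lies at chr12:22193391-22334707 and was near the limit of detection in untreated cells. It had 1, 2 and 1 counts in untreated and 23, 20 and 16 in VPA-treated libraries. The groups did not overlap, but the untreated level rests on 4 counts in all. The ratio of the summed counts, 59 over 4 and corrected for library totals, was 14.8 with an exact 95% interval from 5.5 to 56.3 that covers counting error only. The gene passed the filter only through its VPA-treated libraries, so no p-value of it is given. Its call enters the counts over the set above only as a description. In its abundance class, a mean under 50 normalized counts, 29.4% of tested genes were up-regulated and 40.9% higher at an adjusted p under 0.05.

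Within each library the B4GALNT1 to ST3GAL5 ratio of normalized counts was 2.69, 2.83 and 3.34 in untreated and 4.29, 4.22 and 4.12 in VPA-treated libraries. All VPA-treated libraries had the higher ratio. The log2 ratios differed by 0.52, in favour of B4GALNT1 (p = 0.1 in a two-sided exact permutation test, which cannot go lower with 3 against 3).

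Of the later enzymes of the ganglio-series, 1 was too low to test and 1 was slightly lower. B3GALT4, which makes GM1 and GD1b at chr6:33277123-33278825, had 5, 2 and 6 counts in untreated and 2, 1 and 4 in VPA-treated libraries. The groups overlapped, and the ratio of 7 over 13 summed counts was 0.542 with an exact 95% interval from 0.183 to 1.46, which includes 1, so that a change was not detectable at this depth. ST3GAL2, which sialylates the terminal galactose of GM1 and of long globosides, lies at chr16:70375977-70439100. It had 764, 732 and 717 normalized counts in untreated and 705, 634 and 639 in VPA-treated libraries. All VPA-treated libraries were lower, replicate 1 by little. ST3GAL2 was lower, with a log2 fold change of -0.16 ± 0.058 (SE, adjusted p = 0.0193, edgeR), and the call was lost with library totals (-0.031, adjusted p = 0.669, edgeR), with upper quartile scaling and without untreated replicate 1, VPA-treated replicate 2 or VPA-treated replicate 3.

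**Figure D2:**
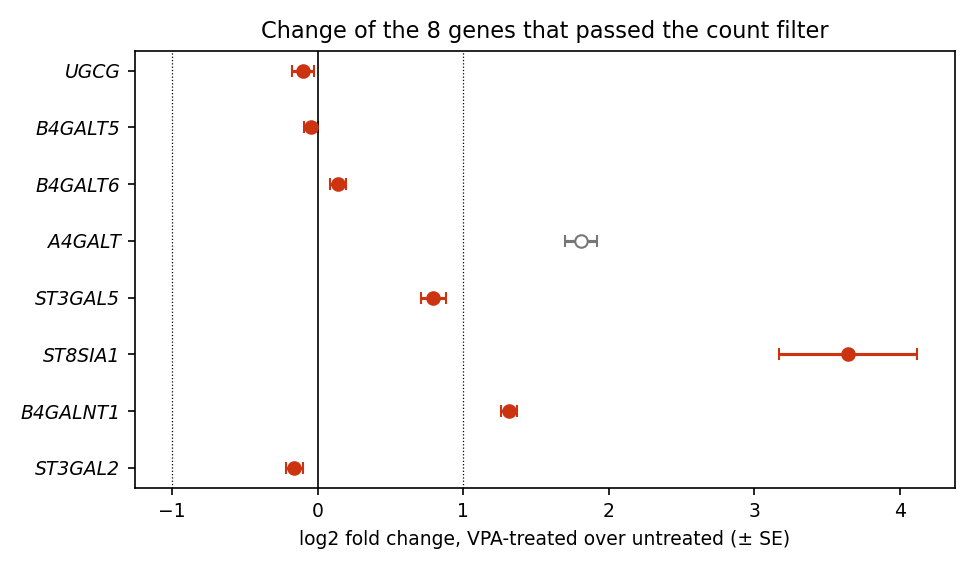
The log2 fold change of VPA-treated over untreated cells (horizontal axis) with its standard error for the 8 genes that passed the count filter; dotted lines mark a log2 fold change of 1 and -1, and the open symbol is A4GALT, chosen for its rise. ST8SIA1 at a fitted 3.65 that depends on the prior count, A4GALT at 1.81 and B4GALNT1 at 1.32 lie beyond the line at 1, ST3GAL5 at 0.80 lies short of it, and the other 4 lie between -0.16 and 0.14.

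To compare genes with each other, levels were divided by the length of the MANE Select transcript and given as CPM per kb. In untreated cells B4GALT5 was highest at 22.7 ± 0.713, followed by B4GALT6 at 8.51 ± 0.328, UGCG at 6.04 ± 0.236, ST3GAL2 at 4.97 ± 0.162 and B4GALNT1 at 4.64 ± 0.266 (SD, n = 3 libraries each). ST3GAL5 at 1.94 ± 0.183 and A4GALT at 1.68 ± 0.143 came next, and B3GALT4, GBGT1 and ST8SIA1 were each under 0.2 in every library. ST3GAL2 and B4GALNT1 overlapped, as did ST3GAL5 and A4GALT, and GBGT1 and ST8SIA1. In VPA-treated cells B4GALNT1 stood second at 11.6 ± 0.131 after B4GALT5 at 22 ± 1.19, and A4GALT at 5.91 ± 0.284 overlapped with UGCG at 5.63 ± 0.601. ST3GAL5 reached 3.38 ± 0.0938 and ST8SIA1 0.104 ± 0.0185, which overlapped with B3GALT4. With the joined length of all annotated exons, B4GALNT1 came after B4GALT6 in VPA-treated cells, and A4GALT was above ST3GAL5 in untreated cells. By that length A4GALT at 3.68 ± 0.177 lay below UGCG at 4.88 ± 0.521 in VPA-treated cells, without overlap. Among 12805 tested genes with a MANE Select length, 21.3% were lower than A4GALT in untreated and 38.8% in VPA-treated cells. For B4GALNT1 these shares were 36.3% and 57%.

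**Figure D3:**
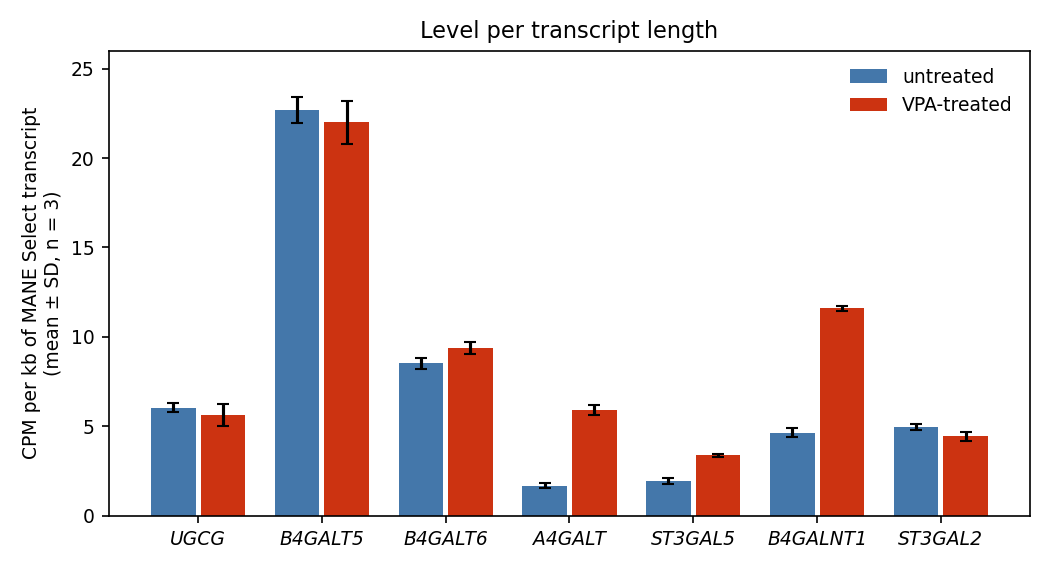
Level in CPM per kb of MANE Select transcript (vertical axis, mean and SD of 3 libraries) for 7 genes in untreated (blue) and VPA-treated (red) cells. B4GALT5 was highest in both groups at 22.7 and 22, and B4GALNT1 rose from 4.64 to 11.6.

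The transcripts of A4GALT, ST3GAL5 and B4GALNT1, 3 of the enzymes that can use lactosylceramide or its first product, were also compared as shares of their sum per length. The sum leaves out ST8SIA1, which uses GM3, and the lacto-series, which also starts from lactosylceramide. A4GALT, whose rise chose it, went from 20.3% ± 1.09 to 28.3% ± 1.23 with VPA (SD, n = 3 each). ST3GAL5 had 23.5% ± 1.55 without VPA and 16.2% ± 0.519 with it, although its own level rose, and B4GALNT1 had 56.2% ± 2.65 and 55.5% ± 0.717. Because the sum contains A4GALT, its chosen rise lowers the other shares, so all of these shares are a description only. With the joined exons the shares in untreated and VPA-treated cells were 22.2% and 29.5% for A4GALT, 11% and 7.27% for ST3GAL5 and 66.8% and 63.2% for B4GALNT1, so that the size of the ST3GAL5 share depends on the length used. These are shares of transcripts, and enzyme activity and lipids were not measured in these libraries.

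The rest of sphingolipid metabolism was described with 7 further lists of 80 genes, of which 67 were tested. Over these lists 28 genes were higher and 14 lower at an adjusted p under 0.05, and 8 were up-regulated and 0 down-regulated by the study's thresholds in edgeR. Over all tested genes the shares were 32.9% higher, 30.0% lower, 12.0% up-regulated and 0.503% down-regulated. FUT9, SPTSSB and DEGS2, which are 3 of the 8, passed the filter only through the VPA-treated libraries. B3GALT1, also among the 8, needed them too, since untreated replicate 2 fell just under the minimum. Counts that hold these genes describe the lists and support no statement on a set. No gene of these lists was down-regulated at an unadjusted p under 0.05 or in DESeq2 either. The median log2 fold change was 0.097 against 0.0058 over all tested genes.

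Other ganglioside sialyltransferases gave 4 of 5 tested genes higher and none lower in edgeR, at an adjusted or unadjusted p under 0.05, with a median of 0.79, and DESeq2 gave 3 higher and none lower. Of all tested genes 32.9% were higher and 30.0% lower. ST6GALNAC5, which adds sialic acid to the N-acetylgalactosamine of gangliosides, had 37.2, 38.7 and 32.5 normalized counts in untreated and 161, 141 and 130 in VPA-treated libraries, which is 1.99 ± 0.14 (SE) on the log2 scale (adjusted p = 1.08e-10, edgeR). ST6GALNAC3, of the same family, rose from 231 to 463 normalized counts (log2 fold change 1.01, adjusted p = 7.88e-11, edgeR), and its log2 fold change of 0.98 in DESeq2 was under the threshold. Neither gene had overlapping groups.

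Galactosylceramide and sulfatide enzymes gave 3 of 4 higher, none lower in edgeR at an adjusted or unadjusted p under 0.05 or in DESeq2, and a median of 0.46, beside 32.9% higher and 30.0% lower among all tested genes. The list joins enzymes of synthesis and of breakdown, and the higher genes include both kinds. GAL3ST1, which makes sulfatide, had 21.7, 18.8 and 13.6 normalized counts in untreated and 148, 127 and 129 in VPA-treated libraries. It was higher in each VPA-treated library, with a log2 fold change of 2.89 ± 0.17 (SE, adjusted p = 3.92e-12, edgeR).

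The lacto- and neolacto-series gave 5 of 12 higher and 3 lower with a median of 0.11, and 3 genes were up-regulated, where 32.9%, 30.0% and 12.0% of all tested genes were. DESeq2 gave 3 higher and 3 lower. GCNT2, which branches poly-N-acetyllactosamine chains, rose from 87 to 211 normalized counts with a log2 fold change of 1.28. B3GALT1, a galactosyltransferase of type 1 chains, rose from 12.9 to 39 with 1.59. FUT9, which makes the Lewis x structure, had 1.03, 7.32 and 5.24 normalized counts in untreated and 22, 27.9 and 21 in VPA-treated libraries, so that it passed the filter only through its VPA-treated libraries and its values are a description. B3GALT1 had 13, 10 and 14 counts in untreated libraries, and the 10 in replicate 2, the deepest library, fell just under the filter's minimum. It too passed only with its VPA-treated libraries, so its values are a description. For GCNT2 the adjusted p in edgeR was 2.88e-09.

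Ceramide and sphingomyelin synthesis gave 9 of 19 higher and 3 lower with a median of 0.097, against 32.9% and 30.0% of all tested genes. DESeq2 gave 5 higher and 3 lower. SPTSSB, a small subunit of serine palmitoyltransferase, had 5.17, 4.18 and 2.1 normalized counts in untreated and 24.9, 30.8 and 29.7 in VPA-treated libraries. DEGS2, which makes phytoceramide, had 9.31, 7.32 and 4.2 without VPA and 15.3, 12.5 and 19.1 with it. Both genes were higher in each VPA-treated library, but they passed the filter only through those libraries. Their values, and the count of higher genes that holds them, are therefore a description.

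Lipid transfer, Golgi factors and sugar nucleotide supply gave 3 of 12 higher and 2 lower with a median of 0.05, against all-gene shares of 32.9% and 30.0%, and no gene passed the fold change threshold in edgeR, at an unadjusted p under 0.05 or in DESeq2. GNE, the enzyme that starts sialic acid synthesis, rose from 899 to 1290 normalized counts (log2 fold change 0.52, adjusted p = 1.89e-08, edgeR). NANP, a phosphatase of the same pathway, rose from 415 to 511 (0.30, adjusted p = 0.000365, edgeR). SLC35A1, the CMP-sialic acid transporter, had 311 and 372, and its groups overlapped (0.26, adjusted p = 0.0161, edgeR). The SLC35A1 call was lost in DESeq2 and without untreated replicate 1, untreated replicate 2 or VPA-treated replicate 2, with adjusted p-values up to 0.145 in edgeR for these.

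Glycosphingolipid breakdown gave 4 of 14 tested genes higher and 5 lower with a median of 0.029, close to the 32.9% and 30.0% of all tested genes, and no gene passed the fold change threshold in edgeR, at an unadjusted p under 0.05 or in DESeq2. The list also holds SMPD1, acid sphingomyelinase, whose substrate is sphingomyelin and not a glycosphingolipid. SMPD1 fell from 242 to 190 normalized counts (log2 fold change -0.35, adjusted p = 0.00377, edgeR), a call lost with library totals. SCARB2, the receptor that brings glucocerebrosidase to lysosomes, rose from 1524 to 1830 (0.26, adjusted p = 0.000171, edgeR).

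**Figure D4:**
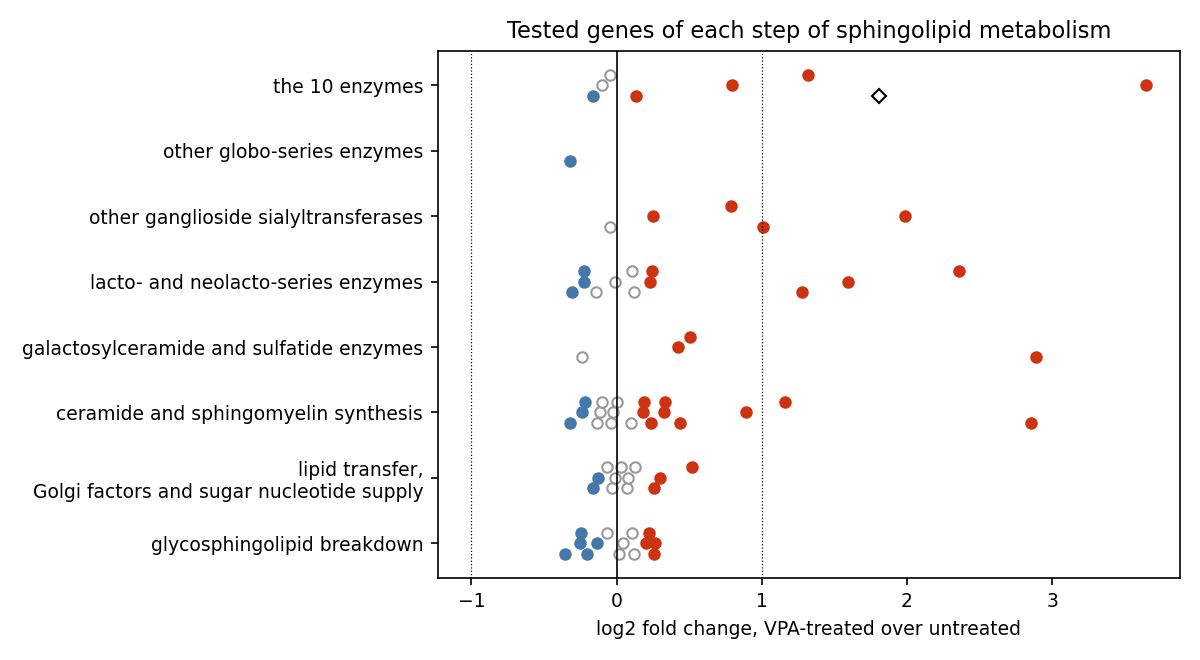
The log2 fold change of VPA-treated over untreated cells (horizontal axis) for each tested gene, one row per list; red and blue filled points were higher and lower at an adjusted p under 0.05, open circles did not pass, the open diamond is A4GALT, and dotted lines mark 1 and -1. Points beyond 1 lie among the 10 enzymes and in the sialyltransferase, lacto-series, sulfatide and ceramide rows, and none lies beyond -1.

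The change was also set against abundance, since calls were unevenly spread over it. Of the 4955 tested genes with a mean of 50 to 500 normalized counts, 16.5% were up-regulated and 47.6% were higher at an adjusted p under 0.05. A4GALT, ST3GAL5 and UGCG lie in this class. In the class of 500 to 5000 counts, with B4GALT5, B4GALT6, ST3GAL2 and B4GALNT1, 20.8% were higher.

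**Figure D5:**
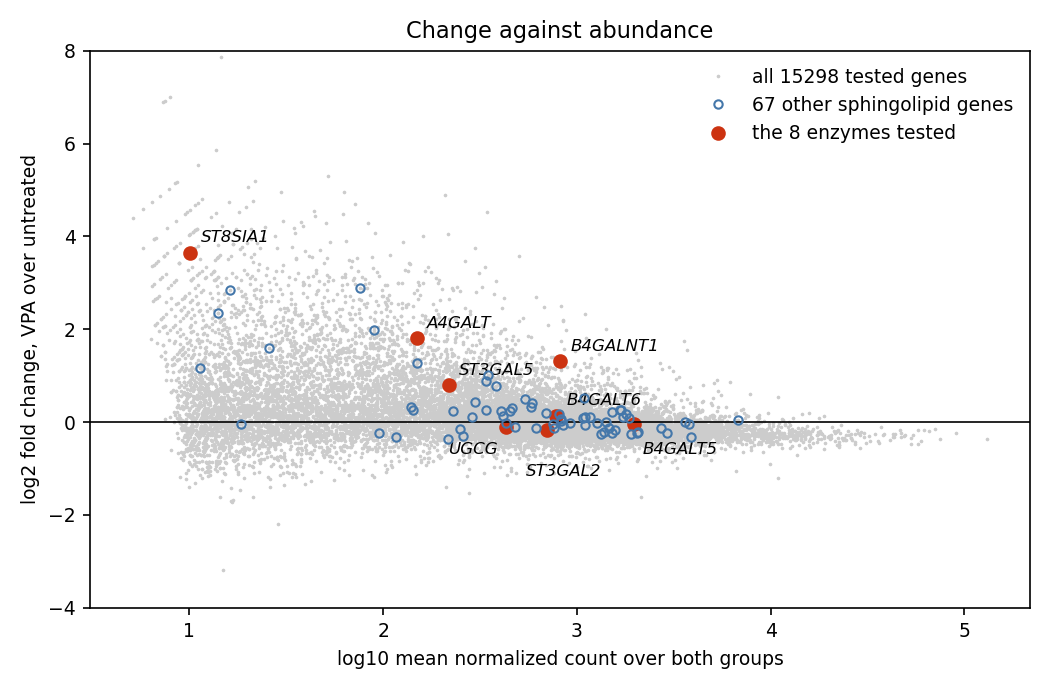
The log2 fold change (vertical axis) against the log10 mean normalized count over both groups (horizontal axis) for all 15298 tested genes (grey), 67 other sphingolipid genes (blue circles) and the 8 enzymes tested (red). B4GALNT1 stands at 1.32 among well-counted genes, and ST8SIA1 at 3.65 lies at the low end of the counts.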

How the data were processed

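RNA-seq was analysed for 3 untreated and 3 VPA-treated libraries. Per the labels and the methods of the study, reads were cleaned with SOAPnuke, aligned to hg38 with STAR (2.7.10b in the submitters' processing notes) and counted per gene with HTSeq (2.0.1 in the processing notes; the methods name another release). The deposited values are raw counts per gene, without normalization. The 5 summary lines of each file belong to no gene and were dropped. They held reads outside genes (6.8% to 7.69%), ambiguous (1.97% to 2.1%) and not uniquely placed (2.81% to 2.92%), so genes with overlaps or close copies are undercounted. Replicates were compared pairwise, and all pairs differed beyond counting noise (chi-square divided by genes, 1.62 to 4.63).

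Tests used edgeR 4.0.16 (R 4.3.3): filterByExpr with a count minimum of 10, TMM, and robust quasi-likelihood with 1 term, the condition. Standard errors were derived from the F statistic and the log2 fold change, and approximate intervals are 1.96 standard errors. Exact permutation tests and exact intervals were made with SciPy 1.17.1. Exact intervals and floors cover counting error only, while the approximate intervals also take in the spread between libraries. Coordinates are from RefSeq on GRCh38.p14, in which all 107 listed symbols were found, and transcript lengths are from GENCODE. Alternatives were DESeq2 1.42.0, other scalings and filters, glmTreat, a replicate block and the omission of single libraries. Named outside the 10 genes were, per list, the genes past both thresholds or otherwise up to 3 of largest change past the adjusted p, the nearest tested genes beside A4GALT and the 3 of closest pattern; some items are not reported here. The genes and lists were chosen with earlier results of these data known.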

Additional observations from a re-analysis of the deposited data

How the results depend on the processing

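The counts and log2 fold changes were recomputed under each alternative. The number of the 7 tested genes other than A4GALT that were lower was 0 in place of 1 with library totals and with upper quartile scaling, and 0 to 1 with a library left out, and 1 in place of 2 was up-regulated with at least 10 counts in every library, where ST8SIA1 is not tested. UGCG turned to 0.029 with library totals, and B4GALT5 to 0.084 with library totals and 0.018 with upper quartile scaling; these scalings moved the median of all tested genes to 0.14 and 0.071. In the other lists 4 genes in place of 14 were lower with library totals, and 5 in place of 8 up-regulated with at least 10 counts in every library. Over all tested genes 2372 in place of 4591 were lower with library totals, 1179 in place of 1833 up-regulated with at least 10 counts in every library and 1149 with glmTreat, and in place of 77 down-regulated there were 38 with library totals, 162 unfiltered, 43 where 10 counts were asked of every library and 8 with glmTreat. The filters test fewer or more genes and glmTreat asks for more than the threshold. For the other changes the cause was not tested. ST3GAL5 and B4GALNT1 kept their call at an adjusted p under 0.05 with the other scalings and filters, DESeq2, the replicate block and any single library omitted; glmTreat was used for counts of calls only. A pseudocount of 0.5 left both ratios in the same direction.

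The replicate block gave 4 of the 7 genes higher and 1 lower, 32 and 16 genes in the other lists, and 5357 and 5100 over all tested genes. Between same-numbered libraries the correlation of deviations from the group means was 0.139, 0.0214 and 0.0805, and for other pairs it was -0.107 to 0.0308. As 2 of the 3 were under 0.1, replicate numbers were not taken as pairs. The ratios taken within replicate numbers differed by 0.19 and 0.52 (exact sign-flip test, p = 0.25, the smallest that 3 pairs allow).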
